A study of Canis lupus familiaris with 32 samples.

Results

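Within the 16 short survivors of the series, the tumors of the dogs that died first were compared with those of the dogs that died last. The earliest deaths were the 5 dogs that lived 50 days or less (tumors 1, 3, 13, 14 and 16 by their OSA number), the later deaths were the 5 dogs that lived 119 days or more (tumors 4, 5, 7, 10 and 11), and the 6 short survivors between them were left out. The comparison thus used 10 of the 32 arrays, and the members were chosen by survival time alone, not by a value on the arrays. All 10 dogs had a primary osteosarcoma harvested at surgery, had received no therapy before, and later had metastatic disease.

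The groups differed in more than survival time. The earliest deaths were 4 females and 1 male (tumor 13), the later deaths 1 female (tumor 7) and 4 males. Chemotherapy after surgery was given to 1 of the 5 earliest deaths (tumor 14) and to 3 of the 5 later deaths (tumors 4, 5 and 7). Tumors 1 and 16 came from a rib and the mandible, and the other 8 came from the limbs. The histological subtype of the earliest deaths was osteoblastic in tumors 3 and 13, osteoblastic and fibroblastic in tumors 14 and 16, and mixed with a chondroblastic part in tumor 1. That of the later deaths was osteoblastic in tumor 7, osteoblastic and fibroblastic in tumors 4 and 11, mixed with a chondroblastic part in tumor 5 and chondroblastic in tumor 10. The grade was medium in tumor 5 and high in the other 9. The earliest deaths were a Boxer, a Labrador retriever, a Belgian Shepherd (tervuren), a Rhodesian ridgeback and a Rottweiler between 2 years 6 months and 11 years 9 months of age. The later deaths were a Great Dane, a Dobermann and 3 Rottweilers between 4 years 8 months and 7 years 9 months. Each sample is a piece of bulk tumor from a different pet dog, so fewer cells of a type cannot be told apart from less RNA per cell, and sex, treatment, breed, age and site cannot be fully separated from the time of death.

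Osteosarcoma is a bone tumor whose malignant cells lay down osteoid, a collagen matrix that later mineralizes. Osteoblast-like cells therefore depend on the secretory pathway: nascent chains enter the endoplasmic reticulum through the SEC61 channel, are glycosylated by oligosaccharyltransferase, are folded by chaperones and travel in vesicles to the Golgi. The tissue around them holds macrophages and osteoclasts, which stem from the same lineage, together with vessels and fibroblasts. Macrophages and other antigen-presenting cells carry MHC class II molecules, called DLA in the dog.

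On 2-color cDNA arrays each tumor was hybridized against a pool of all 32 tumors, so a value is the log2 ratio of tumor to pool and gives no absolute level against which the tissue label could be tested. The tumor carried Cy5 on the arrays of tumors 1, 3, 4, 5 and 7 and Cy3 on those of tumors 10, 11, 13, 14 and 16, and the dye left a strong imprint on the ratios. Differences are therefore from limma models with the dye orientation as covariate, given as earliest minus later deaths on the log2 scale with SE (n = 5 and 5). Values of single tumors are dye-centered, that is the log2 ratio minus the mean of the 16 tumors of the series with the same dye, and are listed in the order 1, 3, 13, 14, 16 for the earliest and 4, 5, 7, 10, 11 for the later deaths. The imprint of the dye was weak on array 13 (strength -0.182) against -0.744 to -0.829 on the other Cy3 arrays of the comparison. The SD across probes ran from 0.474 (array 5) to 0.762 (array 1).

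No probe passed a limma adjusted p of 0.10 in either direction (0% of 22176 probes called), and the smallest adjusted p was 0.175. At an unadjusted p under 0.05, limma counted 1109 probes higher (5%) and 1181 lower (5.33%) in the earliest deaths. On dye-centered values all 5 earliest deaths lay above all 5 later deaths for 299 probes (1.35%) and below them for 342 probes (1.54%). The term for an unequal difference in the Cy5 and Cy3 arrays also gave 0 calls by limma, with 347 and 539 probes at an unadjusted p under 0.05. When the probes of a gene were averaged, which left 5246 named genes, 1 gene was called lower (0.0191%) and 0 higher (0%): BAZ2B, at an adjusted p of 0.0608. Over these genes the median difference was 0.03, 54.5% of differences were above 0 and 45.5% below, 347 genes (6.61%) were higher and 232 (4.42%) lower at an unadjusted p under 0.05, and 91 genes (1.73%) and 77 genes (1.47%) were higher and lower without overlap of the groups. All statements on genes below are to be read against these shares. A gene described by its difference without a call did not pass the adjusted threshold. The call by gene means depended on the fit: 0 genes were called without tumor 1, 4, 7, 10, 11, 13, 14 or 16. The same held with chemotherapy in the model, without the dye covariate and among limb tumors.

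The 15 genes with the smallest p among those higher in the earliest deaths were EIF5A, SND1, ITCH, SDC2, SEC61G, ERGIC3, CNPY2, GFUS, PPCS, AAMP, SSR2, ADK, KIZ, ELAC2 and DSTN, with limma adjusted p of 0.248 to 0.280 over all probes. They were higher by 0.68 (AAMP) to 1.89 (DSTN). The groups did not overlap for 13 of them, ADK and DSTN being the exceptions, since tumor 5 of the later deaths lay at 0.27 and 0.84 among the earliest deaths. Several of these genes work in or around the endoplasmic reticulum. SEC61G is a subunit of the translocation channel, SSR2 is a subunit of the translocon-associated complex, ERGIC3 cycles between the endoplasmic reticulum and the Golgi, CNPY2 is a resident protein of the endoplasmic reticulum, and GFUS makes the GDP-fucose used for glycosylation.

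EIF5A, a translation factor that helps ribosomes through difficult peptide bonds, had values of 0.37, 0.37, 0.56, 0.18 and 0.45 in the earliest and of -0.36, -0.17, -0.52, -0.58 and -0.27 in the later deaths. Every earliest death lay above 0 and every later death below it, with means of 0.39 ± 0.14 and -0.38 ± 0.17 (SD, n = 5 each) and a difference of 0.77 (SE 0.12). ERGIC3 stood at 0.26, 0.95, 0.60, 0.69 and 0.41 against -0.50, -0.02, -0.28, -0.42 and -0.29, a difference of 0.90 (SE 0.15). SND1, an RNA-binding nuclease, differed by 0.97 (SE 0.15), and its other 2 probes differed by 0.72 each. SDC2, a heparan sulfate proteoglycan of the cell surface, differed by 0.95 (SE 0.16) with 1 probe. DSTN, which severs actin filaments, had the widest values, 1.37, 1.84, 0.42, 1.15 and 0.99 against -1.17, 0.84, -1.03, -1.003 and -0.76. The other probes of DSTN differed by -0.02 and 0.998, and the second probe of PPCS, an enzyme of coenzyme A synthesis, differed by -0.07 where the first differed by 1.24. The second probe of ITCH differed by 0.13 beside 1.09, so probes of 1 gene could differ in size or direction. In the dye-balanced means (the mean of the Cy5 and the Cy3 mean) the tumors outside the comparison were, for these 15 probes, the 6 other short survivors at -0.25 to 0.32 and the 16 long survivors at -0.19 to 0.06.

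**Figure D1:**
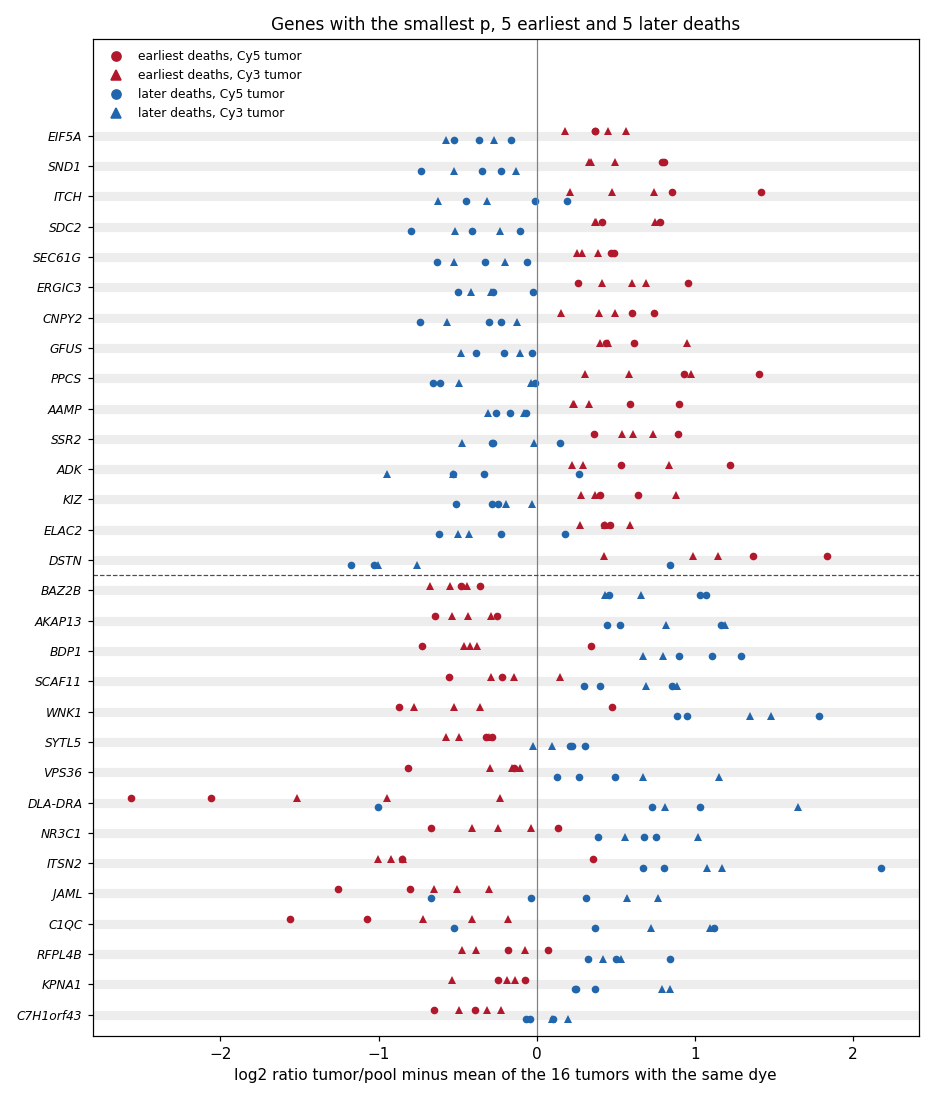
Dye-centered log2 ratios (horizontal axis) of the 5 earliest (red) and 5 later deaths (blue) for the 15 higher genes (above the dashed line) and 15 lower genes with the smallest p, 1 probe per gene. Circles are Cy5-labeled and triangles Cy3-labeled tumors, and the colors separate fully for most rows, with exceptions such as DSTN, ADK, DLA-DRA, JAML and C1QC, where tumor 5 lies among the earliest deaths.

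The list of the endoplasmic reticulum and secretory pathway had the largest share of higher genes at an unadjusted p under 0.05 among the lists with at least 9 genes. Of its 46 genes 43 were higher in the earliest deaths, 16 of them at an unadjusted p under 0.05 (34.8% against 6.61% of all genes) and 0 lower at that p, and 5 had groups that did not overlap. The median difference was 0.33, where all genes gave 0.03. None of the 46 passed the adjusted threshold. This list, like the others, was written with earlier results of these data known. It holds SEC61G and SSR2, which are also among the leading genes above. Its shares are thus no independent evidence. The 16 genes covered successive steps of the pathway. Of the signal recognition particle, SRP14 differed by 0.58 (SE 0.24). Of the channel and its partners, SEC61G differed by 0.75 (SE 0.13), SEC61B by 0.32, SSR1 by 0.61, SSR2 by 0.74 and SSR4 by 0.33. Of oligosaccharyltransferase, RPN1 differed by 0.78 (SE 0.22), RPN2 by 0.65, DDOST by 0.53 and STT3A by 0.65. CALR, a calcium-binding chaperone, differed by 0.51. Of the traffic between the endoplasmic reticulum and the Golgi, SEC22B differed by 0.85 (SE 0.19), KDELR3 by 0.95, KDELR2 by 0.86, the cargo receptor LMAN1 by 0.93 and the small GTPase SAR1A by 0.64.

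SEC61G stood at 0.49, 0.47, 0.28, 0.39 and 0.25 in the earliest and at -0.33, -0.06, -0.63, -0.20 and -0.52 in the later deaths, so every earliest death lay above 0 and every later death below it. SSR2 (mean of 2 probes) stood at 0.32, 0.88, 0.72, 0.49 and 0.54 against -0.20, 0.18, -0.42, 0.02 and -0.34. SEC22B stood at 0.84, 0.80, 0.48, 0.27 and 0.83 against -0.54, 0.14, -0.49, 0.04 and -0.17. In all 3 genes the groups kept apart, and tumor 5 was the highest of the later deaths. RPN1 (mean of 2 probes) stood at 0.20, 1.01, 1.21, 0.68 and 0.45 against 0.16, 0.11, -0.59, -0.04 and -0.09, which also did not overlap but by a narrow gap. HSPA5, XBP1 and ATF4, which take part in the response to endoplasmic reticulum stress, were not among the 16. HSPA5, the chaperone BiP, differed by -0.20 (SE 0.21), XBP1 by 0.30 (SE 0.38) and ATF4 by 0.33 (SE 0.22). XBP1 and ATF4 thus lay near the list median of 0.33. A stress response was not tested.

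Within the Cy5 arrays the median difference of the list was 0.39 and within the Cy3 arrays 0.25. With sex in the model it was 0.41, with 41 genes higher and 15 at an unadjusted p under 0.05. Among limb tumors alone it was 0.25, with 39 genes higher and 10 at that p. Without tumor 4 42 genes were higher and 12 at that p, and without tumor 1 43 and 13. The mean over the list was 0.12 to 0.47 in the earliest and -0.18 to 0.11 in the later deaths, and its dye-balanced mean was -0.11 in the other short survivors and -0.03 in the long survivors. SPCS2, a subunit of signal peptidase, was the 1 member with a large negative difference, -2.24 (SE 1.47), which rested on tumor 1 with a deposited ratio of -7.35. Without tumor 1 the difference of SPCS2 was -0.29.

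**Figure D2:**
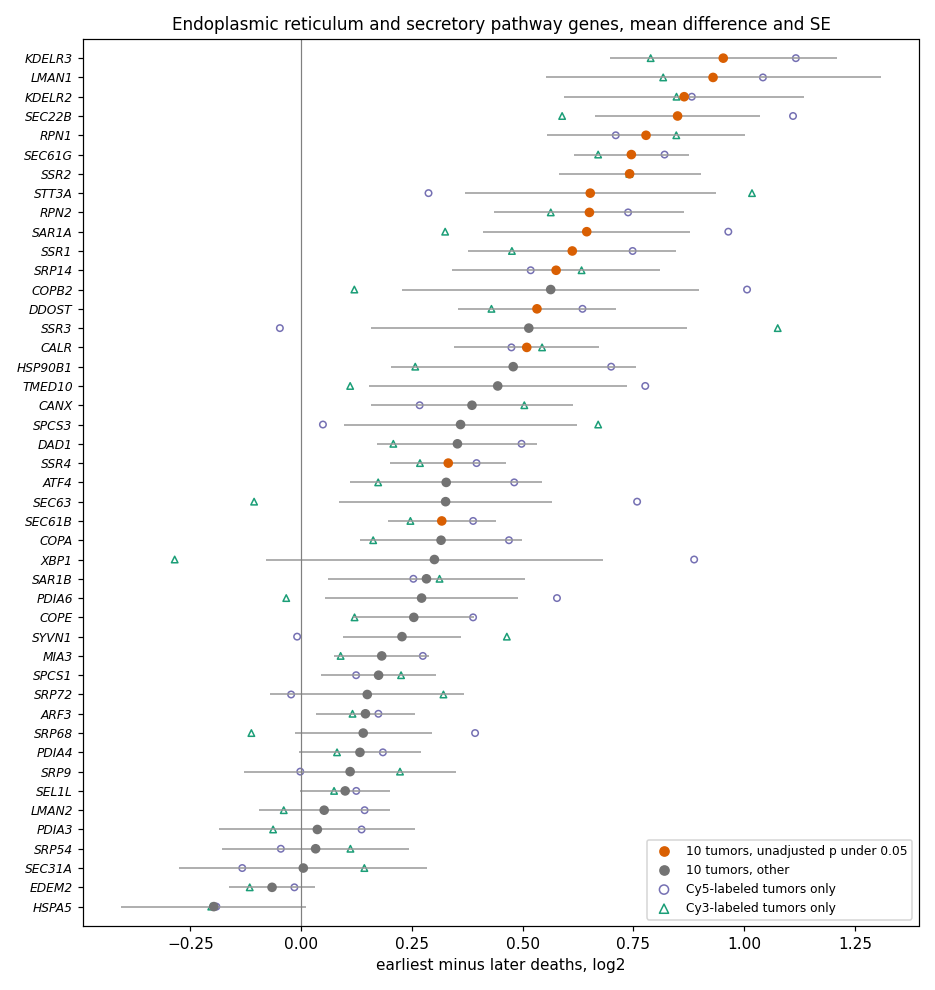
Difference of earliest minus later deaths (horizontal axis, log2) for 45 of the 46 genes of the endoplasmic reticulum and secretory pathway, with bars of 1 SE. SPCS2, at -2.24, is left out. Open circles and triangles give the difference within the Cy5-labeled and within the Cy3-labeled tumors, and 43 of the filled dots lie above 0.

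Proteasome, chaperone, respiratory chain and lipid genes were also mostly higher in the earliest deaths, while translation factors were not in every setting. The medians of these lists were smaller than that of the secretory list, though single genes differed by more. Of 31 proteasome genes 26 were higher, 5 at an unadjusted p under 0.05 and 0 lower at that p, with a median of 0.20. PSMD2, a subunit of the regulatory particle, differed by 0.59 (SE 0.14), and its groups did not overlap. PSMD5, an assembly chaperone, differed by 3.12 (SE 0.98) and PSMA7 by 0.41 (SE 0.14). Of 43 molecular chaperones 31 were higher, 5 and 0 at that p, with a median of 0.16, led by CCT3 (0.61, SE 0.15) and CCT2 (0.68, SE 0.23), subunits of the ring that folds actin and tubulin, and by BAG6 (0.38, SE 0.15). Of 60 genes of the respiratory chain and ATP synthase 48 were higher, 5 and 1 at that p, with a median of 0.19. COX5B differed by 0.45 (SE 0.15) and COX7A2L by 0.52 (SE 0.18) and NDUFC2 by 0.36 (SE 0.13), while COX6A2, the muscle form of a subunit, differed by -0.43 (SE 0.16). Of 40 translation factors 25 were higher, 6 and 1 at that p, with EIF2S2 at 0.80 (SE 0.22) and EIF4A2 at -0.63 (SE 0.16) beside EIF5A, and in the Cy5 arrays 19 of the 40 were higher. Of 19 genes of steroid and lipid metabolism 14 were higher, 5 and 0 at that p, with a median of 0.24, and the sterol genes SQLE (1.07, SE 0.40) and INSIG1 (0.31, SE 0.13) and the cholesterol carrier NPC2 (0.90, SE 0.37) led them. Genes higher at that p made up 16.1% of the proteasome, 11.6% of the chaperone and 8.33% of the respiratory chain list. They made up 15% of the translation factors and 26.3% of the lipid genes, against 6.61% of all genes. The share of the respiratory chain was thus near that of all genes. Tumor 7 was the lowest of the later deaths for the means of the proteasome (-0.38), the respiratory chain (-0.30), the chaperones (-0.14) and the lipid genes (-0.17). Without tumor 7 the median was 0.098 for the proteasome, with 3 genes higher at an unadjusted p under 0.05, and 0.12 for the respiratory chain, also with 3. For the chaperones 2 genes and for the lipid genes 1 gene were then higher at that p, and the chaperones had 1 such gene without tumor 3 and the lipid genes 0 without tumor 1.

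The skeletal muscle markers stood high in the same tumor. Their list mean was 0.81 in tumor 7 and between -0.32 and -0.03 in 8 of the other 9 tumors, with tumor 11 at -0.01. Of the 31 muscle genes 5 were higher and 26 lower in the earliest deaths, 0 of them at an unadjusted p under 0.05, and CKMT2, a mitochondrial creatine kinase, had the smallest p (-0.36, SE 0.20). With sex in the model 12 of the 31 were lower at that p, with a median of -0.43, and without tumor 7 the median was -0.058 with 10 of 31 higher. The part of muscle tissue in the values of tumor 7 was not tested. Without tumor 7 limma called 0 probes, with 842 higher and 836 lower at an unadjusted p under 0.05.

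Genes of bone formation were mostly higher in the earliest deaths, but unevenly. Of 11 osteoblast and bone matrix genes 10 were higher, 2 of them at an unadjusted p under 0.05 (18.2% against 6.61% of all genes). The median difference was 0.59. ALPL, the tissue-nonspecific alkaline phosphatase through which osteoblasts release phosphate for mineral, differed by 2.17 (SE 0.78) with 1 probe. Its values were 1.42, 1.39, 1.22, -1.40 and 1.67 in the earliest and -2.53, 1.19, -1.27, -0.91 and -2.23 in the later deaths, so that 4 of the 5 earliest deaths lay above every later death while tumor 14 lay with the later and tumor 5 near the earliest deaths. The exact permutation test within the dye orientations (two-sided, 100 arrangements, smallest possible p = 0.01) gave p = 0.06 for ALPL. SERPINH1, the collagen chaperone HSP47, stood at 0.26, 1.31, 0.77, 0.10 and 0.68 against -1.79, 0.13, -0.15, -1.05 and 0.22, a difference of 1.16 (SE 0.42).

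The matrix genes proper varied far more between tumors than between the groups. COL1A2, a chain of type I collagen, differed by 0.39 (SE 0.91), SPARC by 0.60 (SE 0.66) and SPP1, osteopontin, by 1.29 (SE 1.26). Tumor 4 was at -3.03 for COL1A2, -2.29 for SPARC and 3.37 for SPP1, and tumor 13 was at -1.50, -1.99 and -3.03. Without tumor 4 the median of the list was 0.18 (8 of 11 higher), and with sex in the model it was -0.01 (5 of 11 higher), so its direction was lost. Of the 3 cartilage genes on the arrays COL2A1 had the smallest p (1.18, SE 0.55).

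WIF1, a secreted inhibitor of Wnt ligands, differed more than any other gene of a list. It stood at 3.01, 0.11, 1.13, 2.95 and 4.00 in the earliest and at -3.31, 1.32, -2.83, -1.35 and -2.51 in the later deaths. The difference was 3.89 (SE 1.02), 14.9-fold, at a limma adjusted p of 0.252 over all genes. Only tumor 5 of the later deaths was above 0, where it lay above tumors 3 and 13. Another inhibitor ran the other way: DKK2 differed by -1.07 (SE 0.31), and 4 of the 5 earliest deaths lay below every later death. Of the other 13 genes of the Wnt list 5 were higher and 0 were at an unadjusted p under 0.05. BMPR1B, a BMP receptor of bone and cartilage, was the gene of the TGF-beta and BMP list with the smallest p (-0.57, SE 0.19).

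MHC class II and complement genes were lower in the earliest deaths. Of 13 antigen presentation genes 10 were lower, 5 of them at an unadjusted p under 0.05 (38.5% against 4.42% of all genes) and 0 higher at that p, with a median of -0.38. DLA-DRA, the alpha chain of the DR molecule, differed by -2.32 (SE 0.43) as the mean of 2 probes, a 4.98-fold difference, at a limma adjusted p of 0.143 over all genes. It stood at -2.12, -2.52, -1.48, -0.85 and -0.16 in the earliest and at 1.09, -1.10, 0.69, 0.87 and 1.65 in the later deaths. Tumor 5 was the 1 later death among the earliest, below tumors 14 and 16. The exact permutation test gave p = 0.02 for DLA-DRA. The beta chain, annotated HLA-DRB1 (3 probes), differed by -1.90 (SE 0.44), CTSS, the protease that trims the invariant chain, by -2.18 (SE 0.60), DLA-DOA by -0.53 (SE 0.16) and DLA-DQA1 by -0.49 (SE 0.20). MHC genes are alike and vary between dogs, and probes may share signal between them. None of the class I genes was at that p: DLA88 differed by -0.26 (SE 0.56), B2M by -0.92 (SE 0.75) and TAP1 by 0.01 (SE 0.48).

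The macrophage markers were also lower. Of 14 genes marking osteoclasts and macrophages 10 were lower, 5 at an unadjusted p under 0.05, and 1 was higher at that p, with a median of -0.60. These were 35.7% lower and 7.14% higher, against 4.42% and 6.61% of all genes. C1QC, a chain of complement C1q made by macrophages, stood at -1.08, -1.56, -0.72, -0.41 and -0.18 against 1.12, -0.52, 0.37, 1.09 and 0.72, a difference of -1.49 (SE 0.29). All 5 earliest deaths were below 0, and 4 of the 5 later deaths above it. CD163, a hemoglobin scavenger receptor, differed by -0.88 (SE 0.29), lysozyme LYZ by -1.85 (SE 0.66), C1QA by -0.84 (SE 0.32) and AIF1 by -1.05 (SE 0.44). CD68 (0.57, SE 0.60), CD14 (-0.10, SE 0.23) and CSF1R (-0.63, SE 0.64) were not at that p, CSF1R being at 2.96 in tumor 4 and between -0.78 and 0.47 in the other 9.

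Tumor 4 stood far above the rest in the means of both lists. Its mean over the macrophage and osteoclast list was 1.13, against -0.74 to 0.34 in the other 9 tumors, and its mean over the antigen presentation list was 1.31, against -1.004 to 0.55. Not every gene followed: tumor 11 was higher for DLA-DRA, and tumor 4 was below 0 for CTSK and ATP6V0D2. Without tumor 4 the medians were -0.16 and -0.13, so that little of either direction was left: 6 of 14 macrophage and osteoclast genes were then higher, with 0 higher and 5 lower at an unadjusted p under 0.05, and 6 of 13 antigen presentation genes were higher, with 1 higher and 4 lower at that p. Without tumor 3 the medians were -0.36 and -0.25, with 2 and 4 genes lower at that p. The lower macrophage and osteoclast genes at that p numbered 3 without tumor 1, 3 without tumor 11 and 1 with sex in the model. Without tumor 4 the differences of single genes were -2.10 for DLA-DRA, -1.73 for CTSS, -1.30 for C1QC and -1.35 for LYZ. Lymphocyte markers were few: 6 were measured, 4 were lower and 0 at an unadjusted p under 0.05, and CCL5 had the smallest p (-0.54, SE 0.33). JAML, a leukocyte adhesion molecule among the 15 lower genes with the smallest p, differed by -1.03 (SE 0.20) on that probe and by -0.15 (SE 0.13) on its other probe.

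The osteoclast genes of the list had differences above 0 in ATP6V0D2 and CTSK. ATP6V0D2, a proton pump subunit found in osteoclasts, stood at 3.14, 1.21, -1.95, 1.59 and 1.30 against -1.98, -0.19, -1.22, 0.51 and -1.10, a difference of 1.96 (SE 0.87), with 4 of the 5 earliest deaths above every later death. CTSK, the collagenase of osteoclasts, stood at 2.55, 0.15, -3.05, 1.71 and 1.29 against -0.58, -0.42, 0.12, 0.89 and -0.77, a difference of 0.78 (SE 0.95). Tumor 13 was the lowest of all 10 for CTSK, and tumors 4 and 13 were the lowest for ATP6V0D2. Of 19 genes of the vacuolar ATPase and acid secretion 16 were higher. At an unadjusted p under 0.05, 2 were higher and 1 lower (10.5% and 5.26% against 6.61% and 4.42% of all genes). ATP6V1B2 differed by 0.59 (SE 0.25), and ATP6V1G2 by -0.34 (SE 0.11).

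**Figure D3:**
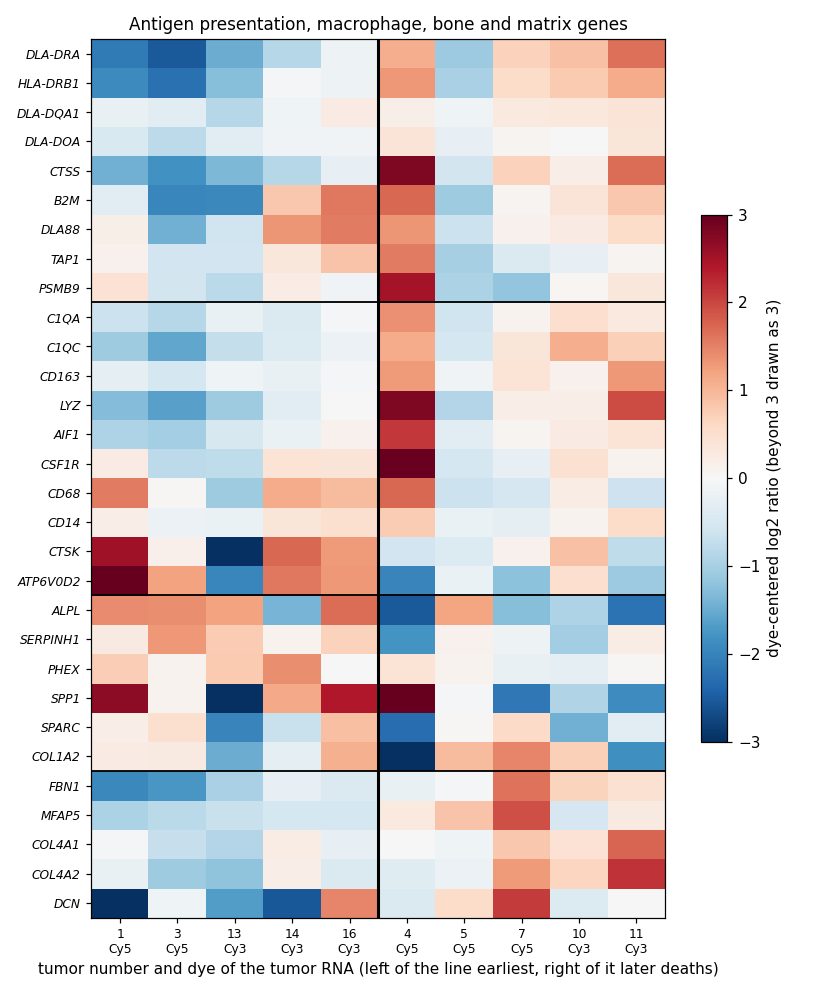
Dye-centered log2 ratios (color) of antigen presentation, osteoclast and macrophage, bone, and other matrix genes (rows, in blocks from top to bottom) in the 5 earliest and 5 later deaths (columns). Tumor 4 is red for C1QC and CSF1R but blue for ATP6V0D2. Tumor 5 is blue or pale for most MHC genes, while DLA-DRA is below 0 in all 5 earliest deaths.

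Matrix genes outside bone were lower in the earliest deaths. Of 19 such genes 17 were lower, 4 of them at an unadjusted p under 0.05, and 0 were higher at that p. The 4 made up 21.1% of the list, against 4.42% of all genes. Groups did not overlap for 2 of the 19, against 1.47% of all genes lower without overlap. The median difference was -0.52. FBN1, fibrillin of the elastic microfibrils, stood at -1.94, -1.73, -0.96, -0.25 and -0.42 in the earliest and at -0.21, -0.06, 1.63, 0.68 and 0.46 in the later deaths, a difference of -1.70 (SE 0.39), and the groups did not overlap. MFAP5, a partner of fibrillin, stood at -0.94, -0.80, -0.66, -0.52 and -0.53 against 0.30, 0.86, 1.93, -0.50 and 0.27, a difference of -1.18 (SE 0.37), also without overlap. The basement membrane collagens COL4A1 and COL4A2 differed by -1.001 (SE 0.34) and -1.39 (SE 0.46), and tumors 7 and 11 were highest for both. The value of COL4A1 is a mean over probes that differed by -1.24, -1.27, -1.30, -1.44 and 0.24. With sex in the model the median was -1.01 and 10 of the 19 genes were lower at an unadjusted p under 0.05.

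Most markers of vessels and fat were also lower, but few at an unadjusted p under 0.05 and not against every later death. Of 9 endothelial markers 8 were lower, 1 at that p (11.1% against 4.42% of all genes), the angiopoietin receptor TEK (-0.45, SE 0.15). ANGPT2 was the 1 higher (0.54, SE 0.28). The list mean was highest in tumors 11 (0.61) and 7 (0.42), and was -0.27 in tumor 4. Of 6 adipocyte markers 5 were lower, 1 at that p (16.7%), with the fatty acid transporter CD36 at -0.91 (SE 0.32). The list means were 0.92 in tumor 7 and 0.70 in tumor 5, but -0.64 in tumor 4, the lowest of all 10 tumors. IGFBP7, a secreted binder of insulin-like growth factors abundant in vessels, differed by -1.51 (SE 0.36). The part of vessels, fat or other host tissue in these values was not tested.

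The 15 genes with the smallest p among those lower in the earliest deaths were BAZ2B, AKAP13, BDP1, SCAF11, WNK1, SYTL5, VPS36, DLA-DRA, NR3C1, ITSN2, JAML, C1QC, RFPL4B, KPNA1 and C7H1orf43, with limma adjusted p of 0.175 to 0.280 over all probes. Beside the immune genes described above, they held regulators of chromatin, transcription and RNA. BAZ2B, a bromodomain protein that reads acetylated histones, stood at -0.48, -0.36, -0.68, -0.44 and -0.55 in the earliest and at 1.03, 0.46, 1.07, 0.43 and 0.66 in the later deaths. The groups lay on either side of 0, with means of -0.50 ± 0.12 and 0.73 ± 0.31 (SD, n = 5 each) and a difference of -1.19 (SE 0.14). The exact permutation test gave the smallest possible p = 0.01 for BAZ2B, as for SEC61G. The groups of both genes did not overlap, so their arrangement had to be the most extreme in its direction. The test therefore adds little to that separation. These 4 single tests were run on genes chosen for their differences and are not adjusted.

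AKAP13, which anchors protein kinase A, stood at -0.64, -0.25, -0.53, -0.29 and -0.44 against 1.17, 0.45, 0.53, 0.82 and 1.19, a difference of -1.29 (SE 0.17), and its second probe differed by -0.69. BDP1, a subunit of the RNA polymerase III initiation factor TFIIIB, stood at -0.73, 0.34, -0.46, -0.42 and -0.38 against 1.29, 1.11, 0.90, 0.80 and 0.67. NR3C1, the glucocorticoid receptor, differed by -0.95 (SE 0.18), with -0.03 for its second probe. ITSN2, an endocytic scaffold, differed by -1.76 (SE 0.33), with tumor 3 at 0.36 and the other 4 earliest deaths at -0.85 to -1.01. VPS36 of the ESCRT-II complex (-0.94, SE 0.17), KPNA1, an importin (-0.77, SE 0.15), SYTL5, a Rab27 effector (-0.52, SE 0.09), RFPL4B (-0.70, SE 0.14) and C7H1orf43 (-0.50, SE 0.10) completed the set. The other probes of C7H1orf43 differed by 0.66, 0.02 and -0.23, those of KPNA1 by -0.30 to -0.01, those of ITSN2 by -0.38 and -0.30, and that of VPS36 by -0.18. Tumor 3 was the highest of the earliest deaths for several of these probes. Without it limma called 26 probes lower and 1 higher at an adjusted p under 0.10.

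Chromatin genes as a whole did not differ in one direction. Of 85 chromatin modifiers 54 were lower, 9 at an unadjusted p under 0.05 (10.6% against 4.42% of all genes), while 4 were higher at that p, and the median was -0.07. Beside BAZ2B the histone methylation genes NSD3 (-0.69, SE 0.16), KMT2E (-1.27, SE 0.31) and KDM5A (-0.85, SE 0.21) were lower without overlap of the groups. Of 93 splicing factors and RNA helicases 67 were higher, with 7 higher and 5 lower at that p. These were 7.53% and 5.38%, near the 6.61% and 4.42% of all genes. SCAF11 (-0.89, SE 0.15) and SRRM1 (-0.70, SE 0.14) were lower without overlap, and SNRPD3, a core protein of the spliceosome, differed by 1.11 (SE 0.35).

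Of the genes that the study listed as higher in short than in long survivors, 24 with a probe were examined between the earliest and the later deaths. The list was chosen by the study on these same arrays, so it is no independent evidence. Of the 24 genes 15 were lower in the earliest deaths, 7 of them at an unadjusted p under 0.05 (29.2% against 4.42% of all genes), 0 were higher at that p, and the median difference was -0.33. The 7 were the splicing genes SCAF11 and SRRM1, the kinase WNK1, the corepressor NCOR1 (-0.58, SE 0.18), the ankyrin repeat proteins ANKRD11 (-1.33, SE 0.44) and ANKRD17 (-0.77, SE 0.30), and the kinesin heavy chain KIF5B (-1.07, SE 0.36). WNK1, which controls chloride transport, differed by -0.90 (SE 0.17) as the mean of its 2 probes, by -1.68 (SE 0.29) on one and by -0.11 on the other. The leading probe stood at -0.87, 0.48, -0.78, -0.36 and -0.52 against 1.78, 0.95, 0.88, 1.48 and 1.35.

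For SCAF11, WNK1, SRRM1 and NCOR1 the mean of the earliest deaths was below 0, as was that of the long survivors. The dye-balanced means of the earliest deaths, the other short survivors, the later deaths and the long survivors were -0.24, 0.24, 0.65 and -0.22 for SCAF11, -0.25, 0.22, 0.65 and -0.20 for WNK1, -0.13, 0.14, 0.58 and -0.19 for SRRM1, and -0.20, 0.16, 0.38 and -0.13 for NCOR1. The later deaths were the highest of the 4 groups for each of these genes. This placing does not hold for the list as a whole. Over its 24 genes the dye-balanced means were 0.23, 0.20, 0.50 and -0.29 in the same order. The earliest deaths thus lay above 0 and the long survivors below it. Other genes of the list were as high or higher in the earliest deaths. WSB2, a SOCS box protein, differed by 0.57 (SE 0.29), HSPD1 by 0.42 (SE 0.33), ATP6V1C1 by 0.42 (SE 0.35), FRA10AC1 by 0.36 (SE 0.20), SEC63 by 0.33 (SE 0.24), MRPS31 by 0.25 (SE 0.25) and COMMD8 by 0.23 (SE 0.25). BLVRB, HSPA9, PON1 and HSP90AA1 differed by 0.09, 0.05, -0.01 and -0.13, all under 1 SE. SMC6, HMGB1, RSL1D1, CCAR1, MGST1 and CFL2 differed by -0.32, -0.33, -0.38, -0.42, -0.54 and -0.87, with SE of 0.24 to 0.76. The median of the list was -0.02 in the Cy5 arrays and -0.41 in the Cy3 arrays, and 0.07 with sex in the model. The study itself had split its short survivors by clustering into subgroups A and B. It reported shorter survival in A, and overexpression in B of a cluster of the listed genes that held NCOR1. How the tumors compared here fell into these subgroups was not examined.

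**Figure D4:**
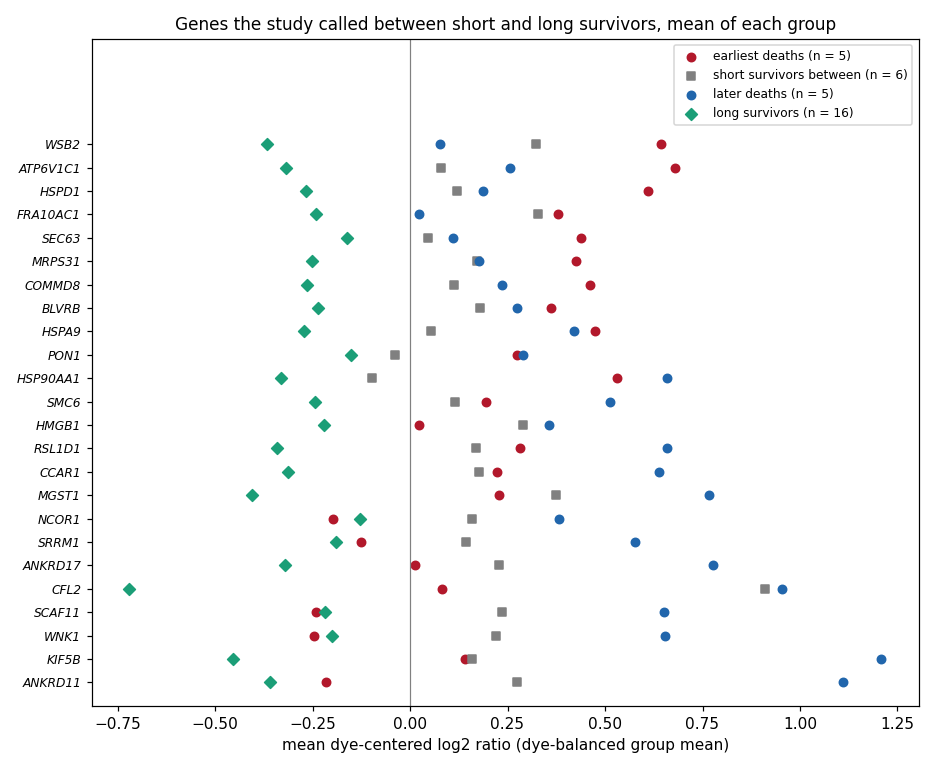
Dye-balanced means of the dye-centered log2 ratio (horizontal axis) in the earliest deaths, the short survivors between, the later deaths and the long survivors for the 24 genes that the study listed between short and long survivors. The rows are ordered by the difference of earliest minus later deaths. For SCAF11, WNK1, SRRM1 and NCOR1 the later deaths lie to the right while the earliest deaths lie nearer to the long survivors.

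The remaining lists held few genes past an unadjusted p of 0.05 in the model without sex. Of 29 cell cycle and DNA replication genes 23 were higher. At that p 2 were higher and 2 lower, 6.90% each, against 6.61% and 4.42% of all genes. The primase subunit PRIM2 differed by 0.52 (SE 0.14), and POLA2 and RFC1 by -0.57 (SE 0.22) and -0.45 (SE 0.18). With sex in the model 25 of the 29 were higher, 11 higher and 1 lower at that p (8.86% of all genes were higher at that p in that model), and the median went from 0.24 to 0.38, while without tumor 7 it was 0.10. Among 22 DNA repair genes PMS1 (0.62, SE 0.13) and PARP4 (0.68, SE 0.26) were higher and BRCA2 (-0.62, SE 0.26) lower. Among 15 growth factors and receptors IGF2R (0.80, SE 0.27) and FGFR2 (0.78, SE 0.31) were higher, and EGFR (-0.73, SE 0.32) was lower beside IGFBP7. Of 21 hypoxia genes 15 were higher, with PDK1, which shuts pyruvate out of the citrate cycle, at 0.89 (SE 0.25), EPAS1 at 0.40 (SE 0.15) and CA12 at -0.61 (SE 0.14). Of 32 genes of glycolysis and the citrate cycle PDHA1 (0.71, SE 0.23), IDH3A (0.39, SE 0.13) and MDH1 (0.42, SE 0.18) had the smallest p. ABCA5 (0.98, SE 0.20), SLC30A3 (-0.38, SE 0.10) and SLC29A1 (0.48, SE 0.14) led 106 transporters, of which 55 were higher.

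Ribosomal proteins gave no common direction. Of 58 cytosolic ribosomal genes 26 were higher, with a median of -0.03, -0.29 in the Cy5 arrays and 0.34 in the Cy3 arrays, and RPS4X (0.60, SE 0.15), RPS27A (0.58, SE 0.20) and RPS18 (0.33, SE 0.12) had the smallest p. Ribosomal protein genes have many near copies, so their probes may share signal. Of 50 mitochondrial ribosomal genes 32 were higher, with MRPS33 at -0.44 (SE 0.11), MRPL58 at 0.59 (SE 0.19) and MRPS21 at 0.43 (SE 0.14). Among 103 ubiquitin genes RNF11 (0.66, SE 0.23), USP24 (-0.67, SE 0.24) and FBXO33 (1.24, SE 0.48) had the smallest p, among 42 actin genes CDC42EP3 (0.91, SE 0.29) and RHOC (0.53, SE 0.17) with DSTN, and among 29 integrin and adhesion genes the tetraspanins CD81 (-0.74, SE 0.21) and CD63 (0.31, SE 0.14). In the other lists the smallest p belonged to CYCS (0.58, SE 0.25) for apoptosis, ALDH1A1 (0.65, SE 0.26) for redox enzymes, OAS2 (-0.73, SE 0.47) for the interferon response and CCL21 (-0.34, SE 0.14) for cytokines. It belonged to JUNB (-0.56, SE 0.27) for immediate early genes, SPTB (0.40, SE 0.15) for erythroid and JUP (0.34, SE 0.25) for epithelial markers. The neutrophil list had 1 measured gene, DEFB1 (-0.09, SE 0.13), which cannot stand for neutrophils. Of the matrix proteases CTSS led. Of the sex chromosome list 4 X-linked genes had probes, 3 were higher, and UBA1 differed by 0.33 (SE 0.13).

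**Figure D5:**
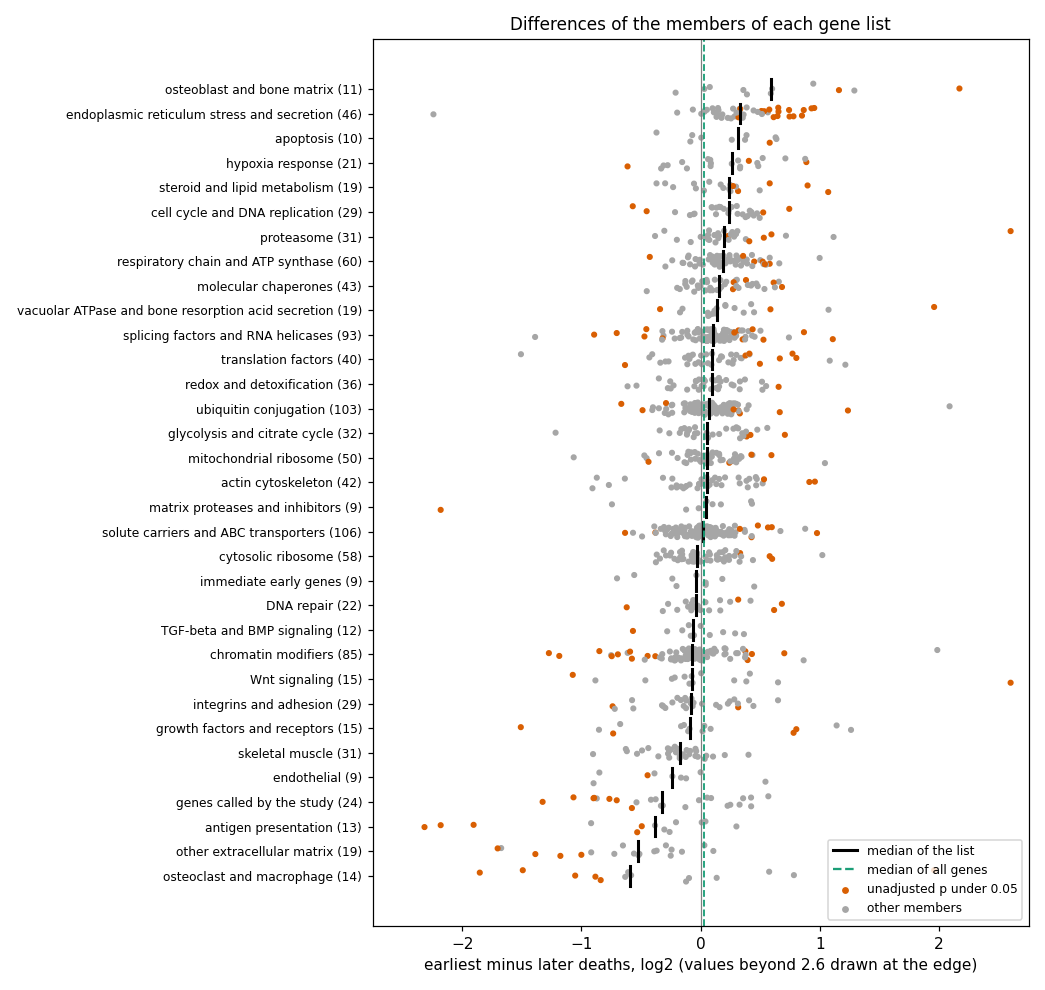
Differences of earliest minus later deaths (horizontal axis, log2) for the members of each list with at least 9 genes, with the number of genes in brackets. Black bars are list medians, the dashed line is the median of all 5246 genes and orange dots are genes at an unadjusted p under 0.05, which gather to the right for the secretory list and to the left for antigen presentation, macrophage and other matrix genes.

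When all 16 short survivors entered 1 model with the 6 others as a group of their own, so that they added to the estimate of the spread, limma called 26 probes higher (0.117%) and 19 lower (0.0857%) in the earliest than in the later deaths. All 45 had the same sign with 10 tumors. The named ones among them were 27 probes of 24 genes, of which 17 were among the 30 leading genes, such as BAZ2B, BDP1, WNK1, AKAP13, ITSN2, SND1, SDC2, ITCH, ERGIC3 and CNPY2. That model assumes that the 6 tumors between vary like the 10 compared. Its differences come from the same 10 arrays, and the 6 others add only to the dye term and the spread. The shared signs and genes are thus no independent evidence.

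Sex was the covariate that ran most closely with the groups. With sex in the model BAZ2B differed by -1.35, SEC61G by 0.88, DLA-DRA by -2.88 (gene mean), FBN1 by -2.50 and WIF1 by 3.72. All 30 leading genes kept their sign, 17 with a larger and 13 with a smaller difference, among the latter ITSN2 at -1.51 and BDP1 at -1.14. limma then called 0 probes, with 1364 higher and 1716 lower at an unadjusted p under 0.05, but 9 genes higher and 8 lower among the gene means, against 0 and 1 without sex. The model then rests on tumors 7 and 13 to separate sex from the time of death. With chemotherapy in the model the medians were 0.28 for the secretory list, -0.26 for antigen presentation and -0.57 for other matrix genes. Among limb tumors, which leaves 3 earliest deaths, they were 0.25, -0.60 and -0.62. limma called 0 probes with chemotherapy in the model, with 967 higher and 783 lower at an unadjusted p under 0.05, and 0 probes among limb tumors, with 971 and 1145.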

How the data were processed

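Spontaneous osteosarcomas of pet dogs, snap-frozen at surgery, were profiled on 2-color cDNA arrays with 22176 probes, each tumor against a pool of all 32 tumors, from amplified RNA. Per the study's methods defective spots were marked, Lowess normalization was run within print tips and dye-swapped arrays were turned, and the authors deposited the resulting log2 ratios, of which 5 values were missing. Tumor over pool was taken as the direction: of 7 variable genes the mean linear ratio was 0.648 to 1.48 in each dye orientation and the mean inverse ratio 1.37 to 7.74. Probe means of the Cy5-labeled and Cy3-labeled tumors correlated at r = -0.658 over all 32 arrays, so each comparison keeps the dye as a covariate. Among the 10 arrays compared, pairs of one orientation correlated at 0.0237 to 0.422, and pairs of different orientation at a median of -0.133 and at -0.277 at the lowest. The dyes of the labels were used as given.

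Groups follow the arrays' title numbers and the survival times of the study. The lists and the members were chosen with earlier results of these data known, and some name patterns were narrowed after it was seen which symbols they matched. limma 3.58.1 in R 4.3.3 fitted group and dye (7 residual degrees of freedom, two-sided, Benjamini-Hochberg threshold 0.10) on all probes, and again on the mean over the probes of each gene. Python 3.11.15 with SciPy 1.17.1 made the summaries. A single gene symbol was given for 7694 probes (5246 genes), 7340 of which matched a current gene by identifier, and 14482 probes had none. The genes named were the 15 higher and 15 lower genes with the smallest p, every measured gene of the study's list and up to 3 members of each other list, and further members were named after their values were seen. Y-linked genes and XIST matched no named probe used here. The number of arrays limits the precision, and p-values measure the spread between these dogs. The scripts were tested on simulated data.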

Additional observations from a re-analysis of the deposited data

Results flagged for a closer look

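In 8 of 134 groups of 5 values examined (60 of leading probes and 74 of list means), 1 tumor stood far from the other 4, where chance gives about 1 in 20. DSTN was at 0.843 in tumor 5 against -1.17 to -0.757 in the other later deaths. VPS36 was at -0.816 in tumor 1 against -0.296 to -0.106 in the other earliest deaths. ITSN2 was at 0.356 in tumor 3 against -1.01 to -0.847. The mean over the matrix proteases was -0.124 in tumor 5 against 0.126 to 0.183 in the other later deaths. The mean over the skeletal muscle markers was 0.813 in tumor 7 against -0.318 to -0.0137. The mean over the erythroid markers was 0.228 in tumor 13 against 0.0149 to 0.0633 in the other earliest deaths. The mean over the ubiquitin genes was 0.161 in tumor 4 against -0.0707 to -0.0342 in the other later deaths, and that over the splicing factors was -0.177 in tumor 7 against 0.0183 to 0.0673.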

How the results depend on the processing

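Probes called higher and lower in the earliest deaths numbered 0 and 0 by limma in most alternatives, with exceptions as follows. They were 26 and 19 with all 16 short survivors in the model, 243 and 285 with all 32 tumors, 4 and 0 with the survival rank, 0 and 1 with quantile normalization, and 0 and 1 when the probes of a gene were averaged. Leaving out 1 tumor gave 0 to 1 higher and 0 to 26 lower, the highest counts without tumor 3. The list medians were recomputed under alternatives chosen after seeing the data. With sex in the model the median was -0.0086 for osteoblast genes, -1.01 for other matrix genes, 0.39 for the proteasome and 0.074 for the study's list. The study's list was at -0.018 in the Cy5 arrays, -0.48 with array weights, and -0.38 to -0.12 with 1 tumor left out, the last without tumor 11. Over the same alternatives the secretory list stayed at 0.25 to 0.41, antigen presentation at -0.70 to -0.11 and macrophage genes at -0.84 to -0.16. Of 200 gene values 14 changed sign at least once. In the Cy3 arrays BLVRB was at -0.39, CFL2 at 0.0075, HSPA9 at -0.42, HSPD1 at -0.025 and SEC63 at -0.11. In the Cy5 arrays DEFB1 was at 0.14, MGST1 at 0.20, PON1 at 0.14 and SMC6 at 0.037. With sex HSP90AA1 was at 0.87, PON1 at 0.26, RSL1D1 at 0.27 and SMC6 at 0.059. With chemotherapy BLVRB was at -0.0095 and HSPA9 at -0.18. In limb tumors BLVRB was at -0.19, CCAR1 at 0.15, COMMD8 at -0.074, HSPA9 at -0.30 and MRPS31 at -0.046. With array weights BLVRB was at -0.032 and HSPA9 at -0.069, with quantile normalization HSP90AA1 at 0.015 and HSPA9 at -0.14, and per survival rank BLVRB at -0.013. With 1 tumor left out BLVRB ran from -0.27 to 0.34, CCAR1 from -1.01 to 0.021, HSP90AA1 from -0.40 to 0.075, HSPA9 from -0.22 to 0.46 and PON1 from -0.15 to 0.082. The cause was not tested for any of these. No paired analysis was possible because the groups share no tumor number. With 5 tumors in each group the precision is limited, and probes near background cannot be told from ratios alone.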
